A study of Rattus norvegicus with 12 samples.

Results

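The cell cycle and proliferation genes described here are 43 genes of the cell division machinery and its brakes, chosen by name: a probe of the rat array belonged to the set where the gene symbol in the scanner files was that of a listed gene, a rule that uses no measured value, although the list was drawn up with earlier results of these data known. All 43 were found, among 21885 gene symbols on the array, with 57 of its 30367 gene probes. Of these genes, 30 had 1 probe and 13 had more than 1. A gene with several probes was summarised by its brightest probe, and other probes are given where their difference had another sign or size. The RNA came from neuron-enriched cultures of the cerebellum of 1-day-old Sprague-Dawley rats at 16 days in vitro (DIV). In 6 cultures acetamiprid (ACE), a neonicotinoid insecticide that acts at nicotinic acetylcholine receptors, was present at 1 µM from day 2 to day 16, and in 6 control cultures the solvent alone. Both groups contained DMSO at 0.001%, and serum was withdrawn during culture to limit the growth of astrocytes. Each of the 6 experiments used the pooled cerebella of 1 litter for a control and an ACE culture, so that replicate number, litter and experiment were the same factor, and the nicotine and imidacloprid cultures of the study were not analysed here.

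A dividing cell passes from G1, in which D and E cyclins with their kinases release E2F transcription factors, through S phase, in which the MCM helicase and PCNA copy the DNA, to G2 and mitosis, which are run by cyclin B with Cdk1, the Aurora and Polo kinases and the anaphase-promoting complex (APC). The CDK inhibitors Cdkn1a, Cdkn1b and Cdkn1c hold the cycle back and are also expressed in cells that have left it. In the neonatal cerebellum the dividing cells are mainly granule cell precursors and glial progenitors, whereas Purkinje cells and mature granule neurons are postmitotic.

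The signal of the 43 genes was well above background, by the scanner software's own test, on all 12 arrays. The exception among the 57 probes was the dimmer Bub1 probe. The 75th percentile of the processed signal ranged from 1803 to 4384 intensity units over the arrays, and 75.4 to 91.0% of gene spots were well above background. Of the markers of the labelled culture, 5 of 6 pan-neuronal genes, 7 of 7 granule neuron genes and 6 of 6 Purkinje cell genes were well above background on all 12 arrays. Glial lists were as well covered (9 of 9 astrocyte, 6 of 6 oligodendrocyte precursor and 9 of 9 microglia genes). Of 5 granule precursor genes 2 were (Atoh1 and Ptch1), and Gli1 was well above background on 2 arrays. Because the arrays measured bulk RNA, fewer dividing cells and less RNA per cell cannot be told apart. On every slide place 1 held the control and place 3 the ACE culture, so place and exposure cannot be told apart either. All values are log2 signals after quantile normalisation unless stated otherwise, and their precision is set by there being 6 arrays in a group.

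In control versus ACE (CvA), the 43 genes lay slightly higher in ACE, by a median of 0.044 on the log2 scale (0.023 under a 75th percentile shift of the arrays in place of quantile normalisation, which moved the median of all probes to -0.033), with a range of -0.12 (Ccnd3) to 0.16 (Tyms). The mean difference was above 0 for 35 of the 43 genes (81.4%), against 47.8% of all 23796 probes tested and 48% of the 20184 probes that were well above background on every array. Counted by probe, it was above 0 for 75.4% of the 57 member probes, with a median of 0.034. The median difference over all probes tested was -0.0050. None of the 43 genes reached a 1.5-fold difference, which 1.72% of all probes did. The number of member probes past an adjusted p of 0.05 was 0 of 57 in the limma fit with the replicate as block, as it was for all probes (0%), with a lowest adjusted p of 0.141. The exact paired signed-rank test gave 6 before adjustment, those with the same sign in all 6 pairs. Its smallest p with 6 pairs is 0.03125, which 11.6% of all probes reached. At that share none can pass the adjustment, so its 0 after adjustment adds nothing to the limma result. At an unadjusted limma p under 0.05 stood 9 of the 57 probes, that is 15.8%, and the share over all probes was 16.6%, so in this setting the number was near that of the array at large. It was 14 probes (24.6%) with normexp background correction and with the authors' deposited values, against 18.1% and 16.8% of all probes. Among the member probes bright on every array it was 16.1%, against 17.1% of such probes in all. A fit on such probes alone gave 11 member probes (19.6%, against 18.6% of all in that fit). By direction, 8 probes (14.0%) were higher in ACE and 1 (1.75%) was lower, against 6.9% and 9.73% of all probes. A difference of the same sign in all 6 pairs was seen for 6 member probes (10.5%), of which 5 were higher in ACE and 1 lower. Over all probes this was 11.6%, with 4.72% higher and 6.86% lower. The control and ACE arrays overlapped in all 57 probes (0 without overlap), as they did in nearly all others, with 0.0126% of all probes free of overlap.

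**Figure D1:**
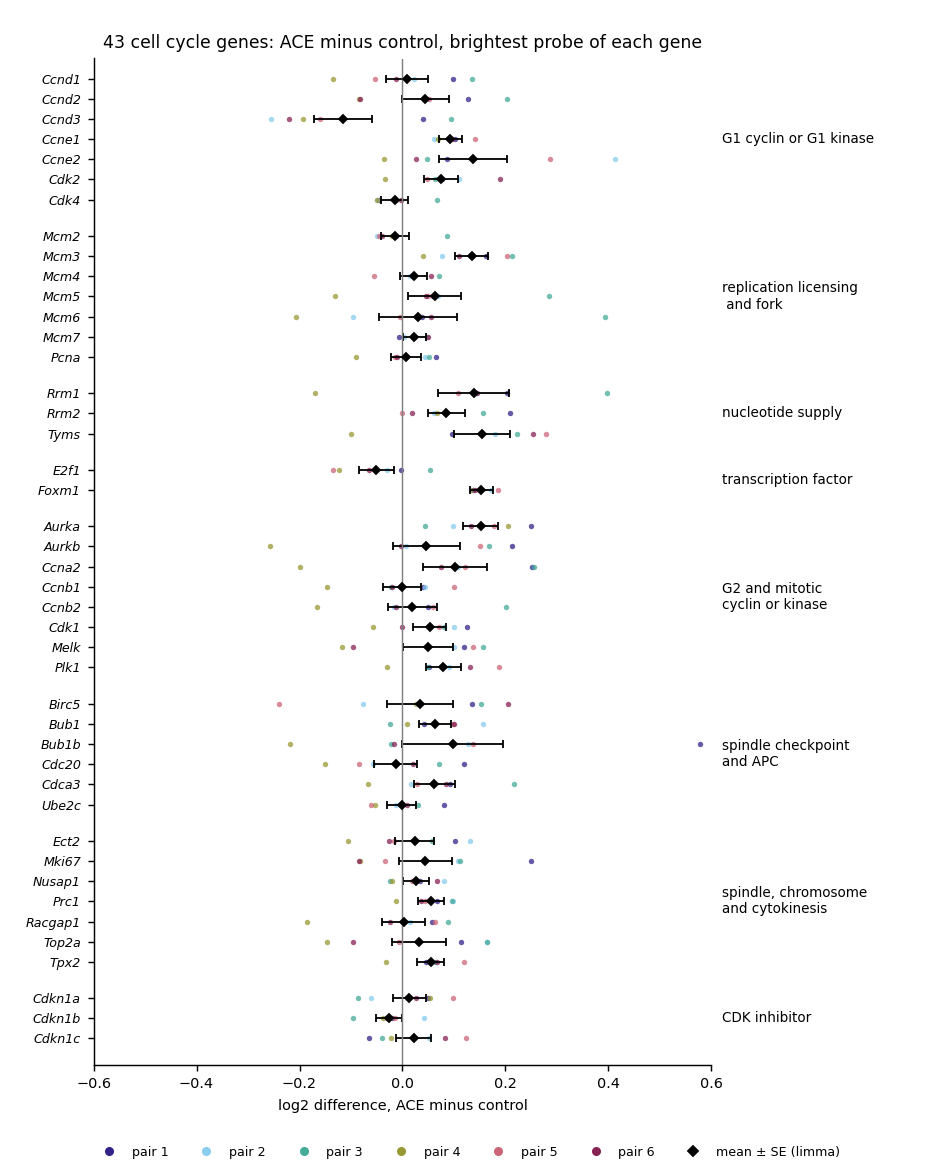
Differences between ACE and control (log2 signal, x axis) for the brightest probe of each of the 43 genes (y axis), grouped by role. Coloured points are the 6 pairs of cultures and black diamonds the mean with its standard error from limma. Most diamonds sit to the right of 0 (35 of 43), none is beyond 0.16, and the points of pair 4 often lie to the left of the others.

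Of the 6 pairs of cultures, 5 had this direction and pair 4 the opposite one. The genes higher in ACE numbered 37, 33 and 36 of 43 in pairs 1, 2 and 3 and 27 and 25 in pairs 5 and 6, but 10 in pair 4, against 46.0 to 52.4% of all probes in each pair. The median difference over the 43 genes was 0.081, 0.061 and 0.086 in pairs 1, 2 and 3, 0.050 and 0.025 in pairs 5 and 6, and -0.057 in pair 4. In that pair all 7 spindle, chromosome and cytokinesis genes and 7 of the 8 G2 and mitotic genes were lower in ACE, whereas in pair 1 all 7 and all 8 were higher. Over all probes the pair medians stayed between -0.015 and 0.0069. Without pair 4 the median over the 43 genes was 0.070, and without pair 1 or pair 3 it was 0.028 or 0.029. At an unadjusted limma p under 0.05 stood 14 member probes without pair 4 (24.6%, against 14.0% of all probes in that fit), 13 of them higher in ACE and 1 lower, with 0 past the adjusted threshold. Leaving out any other pair gave 6 to 9 member probes (10.5 to 15.8%, against 11.8 to 17.5% of all probes). Pairs 4, 5 and 6 were scanned in 1 batch and the other 3 pairs each in a batch of its own, and the part of the scan batch was not tested.

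**Figure D2:**
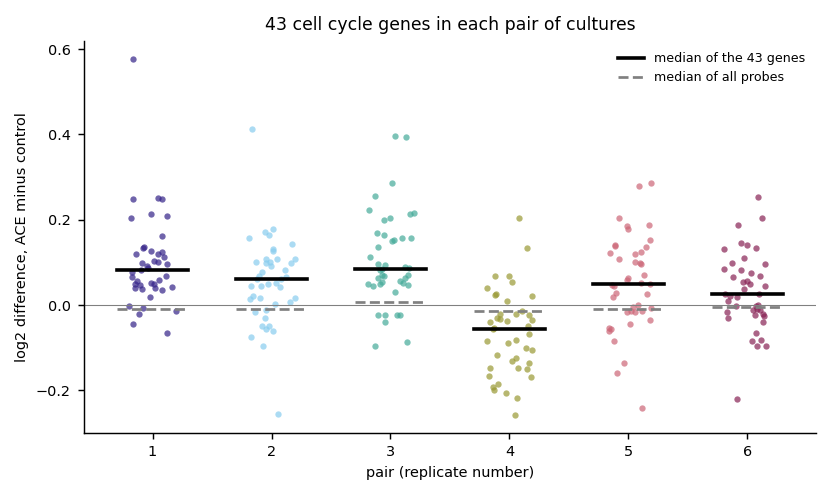
Log2 differences, ACE minus control (y axis), of the 43 genes in each of the 6 pairs of cultures (x axis). Each point is a gene, the solid bar the median of the 43 genes and the dashed bar the median of all probes. The solid bar lies above the dashed bar in 5 pairs and below it in pair 4.

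Among the G1 cyclins and kinases, Ccne1, which encodes cyclin E1 and drives entry into S phase with Cdk2, had the steadiest difference. Its lowest, median and highest signal was 10.26, 10.34 and 10.54 in control and 10.38, 10.44 and 10.63 in ACE. The groups overlapped, but the ACE array was the higher in all 6 pairs, by 0.093 ± 0.023 (moderated standard error and adjusted p = 0.172 from limma, as for all differences that follow). The D cyclins are induced by growth factors. For Ccnd1 the signal was 12.17, 12.30 and 12.66 (lowest, median, highest) in control and 12.21, 12.30 and 12.64 in ACE, with 3 pairs in each direction. Ccnd2, a D cyclin of granule cell precursors, ranged from 9.03 to 10.54 around a median of 9.65 in control and from 9.15 to 10.45 around 9.71 in ACE. Neither of these D cyclins differed between the groups beyond its error (0.0089 ± 0.041 and 0.044 ± 0.046). The Ccnd2 difference was 0.012 to 0.070 when leaving out a replicate and 0.028 under a 75th percentile shift. Ccnd3 had the most negative difference of the 43 genes, at -0.12 ± 0.056 (adjusted p = 0.358), lower in ACE in 4 of 6 pairs. Its signal was 10.42, 11.17 and 11.44 in control and 10.51, 10.98 and 11.43 in ACE, and both arrays of experiment 3 lay below all others. Cdk4, the kinase partner of the D cyclins, had 12.19, 12.35 and 12.62 in control against 12.14, 12.35 and 12.58 in ACE, lower in ACE in 5 of 6 pairs but by 0.015 ± 0.026 only. Cdk2 and Ccne2, the second E cyclin, were each higher in ACE in 5 of 6 pairs, by 0.075 ± 0.033 and 0.14 ± 0.066, with adjusted p of 0.321 and 0.350. Ccne2 differed by 0.058 under a 75th percentile shift and by 0.082 without pair 2.

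Of the 7 replication genes, Mcm3 alone had an unadjusted p under 0.05 in its brightest probe. Mcm3 is a subunit of the MCM helicase, which is loaded at origins and unwinds DNA. The brighter of its 2 probes had 11.53, 11.77 and 11.88 in control and 11.69, 11.92 and 12.08 in ACE. ACE was the higher in all 6 pairs, by 0.13 ± 0.032 (adjusted p = 0.168), with overlapping groups. The dimmer Mcm3 probe, at chr9:19537380-19537439 (rn4) against chr9:19536947-19537006, differed by 0.0093 ± 0.053, so the probes of the gene disagreed. Mcm4 disagreed the other way: the dimmer probe had 5.94, 6.48 and 6.999 in control and 6.20, 6.56 and 7.27 in ACE, higher in 5 of 6 pairs by 0.16 ± 0.058 (adjusted p = 0.254) or by 0.094 under a 75th percentile shift, whereas the brighter probe differed by 0.021 ± 0.026. Mcm2 had 10.46, 10.75 and 10.98 in control and 10.54, 10.71 and 10.93 in ACE, a difference of -0.014 ± 0.027. Pcna, the sliding clamp of the replication fork, had 12.88, 12.96 and 13.25 in control and 12.79, 12.99 and 13.29 in ACE, a difference of 0.0075 ± 0.029 with 3 pairs in each direction. Mcm7, whose SD between experiments was the smallest of the helicase genes (0.10), had 11.99, 12.17 and 12.27 in control and 12.01, 12.21 and 12.29 in ACE, a difference of 0.023 ± 0.022. The other helicase genes Mcm5 and Mcm6 differed by 0.063 ± 0.052 and 0.030 ± 0.075. Over the 7 genes the median difference was 0.023.

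The nucleotide supply genes had the highest median of any role, at 0.14, with all 3 means above 0. Tyms, thymidylate synthase, had 7.82, 8.01 and 8.21 in control and 7.75, 8.19 and 8.39 in ACE, higher in 5 of 6 pairs by 0.16 ± 0.054 (adjusted p = 0.245). In pair 4 it was lower, and the groups overlapped. Rrm2 encodes the regulated subunit of ribonucleotide reductase, the enzyme that makes deoxynucleotides. Its dimmer probe had 6.54, 7.12 and 7.36 in control and 6.68, 7.26 and 7.54 in ACE, higher in all 6 pairs by 0.16 ± 0.029 (adjusted p = 0.143), or by 0.095 under a 75th percentile shift. The brighter Rrm2 probe had the same sign in 5 of 6 pairs (0.085 ± 0.036), and Rrm1, the large subunit, differed by 0.14 ± 0.069, also in 5 of 6 pairs.

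Foxm1 had the lowest p of the 57 probes. It is the transcription factor of the G2 and mitotic genes. Its brighter probe, at chr4:165394514-165394573 (rn4), had 9.20, 9.35 and 9.56 in control and 9.33, 9.49 and 9.72 in ACE. The groups overlapped, and ACE was higher in all 6 pairs by 0.15 ± 0.022, that is 11.2%, with an adjusted limma p of 0.141 and an exact two-sided sign-flip p of 0.03125, the smallest that 6 pairs can give. The dimmer Foxm1 probe had a difference of like size, 0.13 ± 0.092, in 4 of 6 pairs. E2f1, the E2F factor of S phase entry, was lower in ACE in 5 of 6 pairs by 0.051 ± 0.033 in its brighter probe and had the opposite sign in its dimmer one (0.060 ± 0.055).

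Of the G2 and mitotic cyclins and kinases, Aurka, the Aurora kinase of centrosome and spindle assembly, differed most. It had 10.26, 10.67 and 10.76 in control and 10.51, 10.80 and 10.87 in ACE. ACE was the higher in all 6 pairs, by 0.15 ± 0.034 (adjusted p = 0.154), with overlapping groups. Cdk1, the mitotic kinase, had 12.61, 12.94 and 13.11 in control and 12.74, 13.00 and 13.18 in ACE, a difference of 0.053 ± 0.032 in 4 of 6 pairs. Of its cyclin partners, Ccnb1 differed by -0.0011 ± 0.037, Ccnb2 by 0.019 ± 0.048 and Ccna2 by 0.10 ± 0.063 (higher in 5 of 6 pairs), while the dimmer Ccna2 probe gave -0.0042 ± 0.047. Plk1, the Polo kinase, differed by 0.080 ± 0.034, the kinase Melk by 0.050 ± 0.048 and Aurkb, the Aurora kinase of the centromere and midbody, by 0.047 ± 0.065.

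In the spindle checkpoint and APC group, no probe of 7 had an unadjusted p under 0.05. Bub1b, a checkpoint kinase, had the largest difference, 0.097 ± 0.098, of which pair 1 alone had 0.58. Cdc20, which switches on the APC, and Ube2c, which works with it, differed by -0.013 ± 0.042 and -0.0012 ± 0.028. Cdca3 and Bub1 differed by 0.062 ± 0.040 and 0.063 ± 0.031. The dimmer Bub1 probe, not well above background on 1 of the ACE arrays, differed by -0.0098 ± 0.053. Birc5 (survivin) of the chromosomal passenger complex had 8.69, 9.60 and 10.07 in control and 8.83, 9.61 and 9.99 in ACE, a difference of 0.034 ± 0.064. All 7 spindle, chromosome and cytokinesis genes had means above 0 in their brightest probe, none over 0.055, while the dimmer Prc1 probe was at -0.016 ± 0.040. Mki67, the proliferation marker Ki-67, had 11.16, 11.58 and 11.83 in control and 11.36, 11.66 and 11.80 in ACE. Its difference was 0.045 ± 0.052 with 3 pairs in each direction, and its 2 dimmer probes gave 0.066 ± 0.033 and 0.026 ± 0.071. Without pair 1 the difference of the brightest probe was 0.0038. Top2a, the topoisomerase that untangles chromosomes, had 9.88, 10.06 and 10.33 in control and 9.83, 10.18 and 10.33 in ACE in its brighter probe. That probe differed by 0.032 ± 0.053 (0.0055 to 0.068 when leaving out a replicate). The dimmer Top2a probe, with 6.75, 7.14 and 7.51 in control and 6.84, 7.18 and 7.58 in ACE, was higher in 5 of 6 pairs by 0.063 ± 0.026 (adjusted p = 0.291), but by 0.0043 under a 75th percentile shift. Nusap1, Prc1, Ect2, Racgap1 and Tpx2, which bundle spindle microtubules or divide the cell, differed by 0.0024 to 0.055.

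The CDK inhibitors showed the clearest disagreement between probes of a gene. Cdkn1a encodes p21, which inhibits cyclin-dependent kinases. Its brighter probe, at chr20:7386596-7386655 (rn4), had 13.64, 14.00 and 14.18 in control and 13.56, 14.04 and 14.13 in ACE, a difference of 0.013 ± 0.033. Its other probe, at chr20:7385536-7385595, had 13.11, 13.54 and 14.62 in control and 12.86, 13.12 and 14.61 in ACE. This probe was lower in ACE in all 6 pairs, by -0.31 ± 0.085 (adjusted p = 0.192, exact sign-flip p = 0.03125), and it was the only 1 of the 57 probes with that direction in every pair. It also stood highest in experiment 1 (14.62), where the brighter probe (13.83) was above experiment 3 alone. Which transcripts each probe detects was not tested. Cdkn1b (p27), the inhibitor of cells at rest, had 11.65, 11.78 and 11.99 in control and 11.69, 11.76 and 11.89 in ACE, a difference of -0.026 ± 0.026. Cdkn1c (p57), an imprinted gene, had 11.78, 12.48 and 13.02 in control and 11.71, 12.45 and 13.10 in ACE, a difference of 0.022 ± 0.034. That difference was 0.0012 to 0.039 when leaving out a replicate and 0.0010 with normexp. The dimmer Cdkn1c probe gave -0.053 ± 0.049.

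Promoter sequences are shown for Mcm5, Mcm6, Cdk1 and Ccnb2, because these carried the letters of the elements through which S phase and mitotic genes are known to be switched together. They are the 250 bases before the gene start, 5′ to 3′ on the gene's strand, from RefSeq on GRCr8, a build other than that of the probe positions. Such sequences were at hand for 30 of the 43 genes (not for E2f1, Ccne2, Mcm4, Rrm2, Ccna2, Foxm1, Aurkb, Ube2c, Racgap1, Ccnd2, Tpx2, Cdkn1c and Ccnd1). Capitals mark matches on either strand to TTTCGCGC or TTTGGCGC (E2F sites), TTTGAA (the CHR element) and CCAAT (the CCAAT box). They lie at chr19:13488563-13488812, plus strand (Mcm5), chr13:42404353-42404602, minus strand (Mcm6), chr20:19265043-19265292, plus strand (Cdk1) and chr8:79981659-79981908, minus strand (Ccnb2).
Mcm5: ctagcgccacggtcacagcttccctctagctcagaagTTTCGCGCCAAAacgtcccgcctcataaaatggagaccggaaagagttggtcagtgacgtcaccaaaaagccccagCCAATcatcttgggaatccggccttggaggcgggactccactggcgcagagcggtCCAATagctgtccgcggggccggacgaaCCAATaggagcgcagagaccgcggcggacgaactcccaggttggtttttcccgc
Mcm6: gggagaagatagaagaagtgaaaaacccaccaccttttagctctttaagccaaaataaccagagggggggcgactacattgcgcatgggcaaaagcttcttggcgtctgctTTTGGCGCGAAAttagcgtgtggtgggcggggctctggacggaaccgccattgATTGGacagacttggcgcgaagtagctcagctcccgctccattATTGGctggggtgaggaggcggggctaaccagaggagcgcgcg
Cdk1: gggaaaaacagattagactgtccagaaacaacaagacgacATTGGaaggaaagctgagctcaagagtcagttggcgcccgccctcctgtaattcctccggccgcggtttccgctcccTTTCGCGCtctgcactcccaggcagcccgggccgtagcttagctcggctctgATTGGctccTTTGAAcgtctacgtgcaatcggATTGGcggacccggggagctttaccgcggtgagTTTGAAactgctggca
Ccnb2: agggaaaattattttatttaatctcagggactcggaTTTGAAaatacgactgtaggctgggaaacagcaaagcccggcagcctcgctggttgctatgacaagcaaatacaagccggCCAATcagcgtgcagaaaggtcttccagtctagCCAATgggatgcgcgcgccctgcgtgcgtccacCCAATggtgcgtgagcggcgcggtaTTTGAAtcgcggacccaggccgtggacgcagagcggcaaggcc
In Mcm5 and in Mcm6 a match to TTTCGCGC overlapped one to TTTGGCGC on the other strand.

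An E2F match of either form was present in 6 of the 30 promoters (Cdk1, Mcm2, Mcm5, Mcm6, Mcm7 and Tyms), and in 0.636% of all 33469 promoters of the table. TTTCGCGC was in 5 of the 30 and in 0.248% of all, and TTTGGCGC in 3 of the 30 and in 0.412% of all. CCAAT was in 21 of the 30, against 34% of all, and TTTGAA in 9, against 16.2%. Both of these were in 8 (Birc5, Ccnb2, Cdc20, Cdk1, Ect2, Mki67, Prc1 and Top2a), against 5.87% of all promoters. The 6 genes with an E2F match had differences between -0.014 (Mcm2) and 0.16 (Tyms), and the 8 genes with both mitotic elements between -0.013 (Cdc20) and 0.055 (Prc1). These matches describe letters in a window and were not tested as sites of binding.

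In 41 of the 43 genes (95.3%) the SD between experiments exceeded the SD within an experiment, as it did in 92.5% of all probes. The SD within an experiment was taken from the spread of the pair differences. A mean difference between control and ACE therefore does not enter it. In the same limma fit, the F test of the 6 experiments was past an adjusted p of 0.05 for 51 of the 57 member probes (89.5%), against 83.9% of all probes. Of the member probes bright on every array the share was 89.3%, against 88.2% of all such probes, so in this count the genes were like the rest of the array. The spread itself was smaller. The SD between experiments of the mean of the control and ACE array had a median of 0.18 over the 43 genes (0.19 over the 57 member probes). This compares with 0.29 over all probes and 0.25 over bright probes. The SD of a single array within an experiment, from the pair differences, had a median of 0.058 against 0.088 and 0.076. Between the lowest and the highest experiment, 10 of the 43 genes (23.3%) differed at least 1.5-fold in their brightest probe, as did 64.3% of all probes, dim ones included. The choice of probe matters for this contrast. Of the dimmer member probes, those of Cdkn1a, Cdkn1c, Rrm2, Mcm4, Bub1, Mki67, Prc1, Top2a and E2f1 reached 1.5-fold. Those of Ccna2, Mcm2, Mcm3 and Foxm1 did not. In 37 of the 43 genes the SD between experiments was below the median of all probes. Experiment, slide and, for experiments 1 to 3, scan batch cannot be told apart. The arrays of experiment 1 were also extracted with another software version, which cannot be told apart from that experiment either. They had 91.0% (control) and 90.4% (ACE) of gene spots well above background, against 75.4 to 84.7% on the other arrays. Within the batch of experiments 4 to 6 the median SD over the genes was 0.14.

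**Figure D3:**
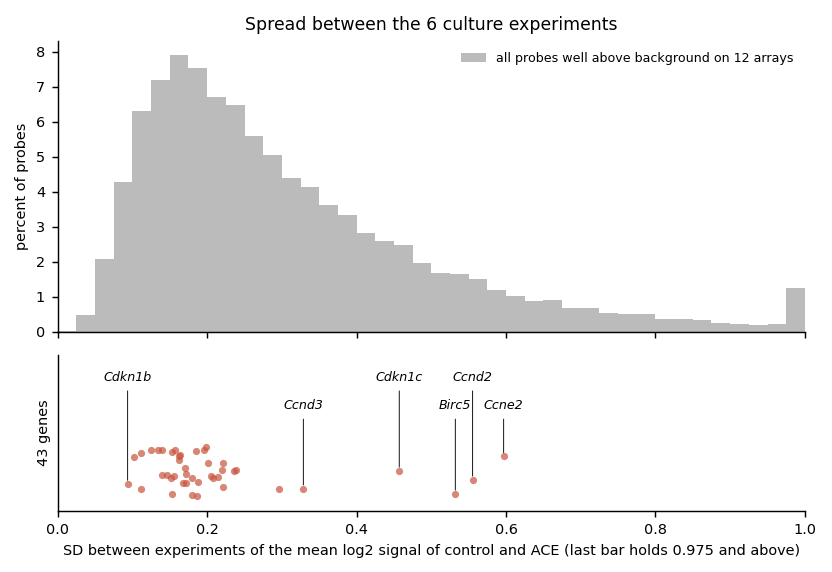
Distribution of the SD between the 6 experiments (x axis, log2 scale) for all probes well above background on 12 arrays (upper panel, percent of probes) and the 43 genes (lower panel, a point each, height without meaning). Most genes lie under 0.25, with Nusap1, Ccnd3, Cdkn1c, Birc5, Ccnd2 and Ccne2 to the right.

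As a set, the 43 genes were lowest in experiment 4, with a median deviation of -0.13 from each gene's own mean, and low in experiments 1 (-0.084) and 3 (-0.056). They stood higher in experiments 2, 5 and 6 (0.10, 0.097 and 0.11). Experiments 1 and 4 each held the lowest value of 16 genes, and experiment 4 the highest value of none (0). The median deviations of the G1 and of the G2 and mitotic genes had opposite signs in experiment 2 and the same sign in the other 5, a difference that was not tested. The 8 G2 and mitotic genes were all above their own mean in experiments 2 and 5, whereas the G1 group had its highest median deviation in experiment 6 (0.28) and was below its mean in experiment 2 (-0.10).

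**Figure D4:**
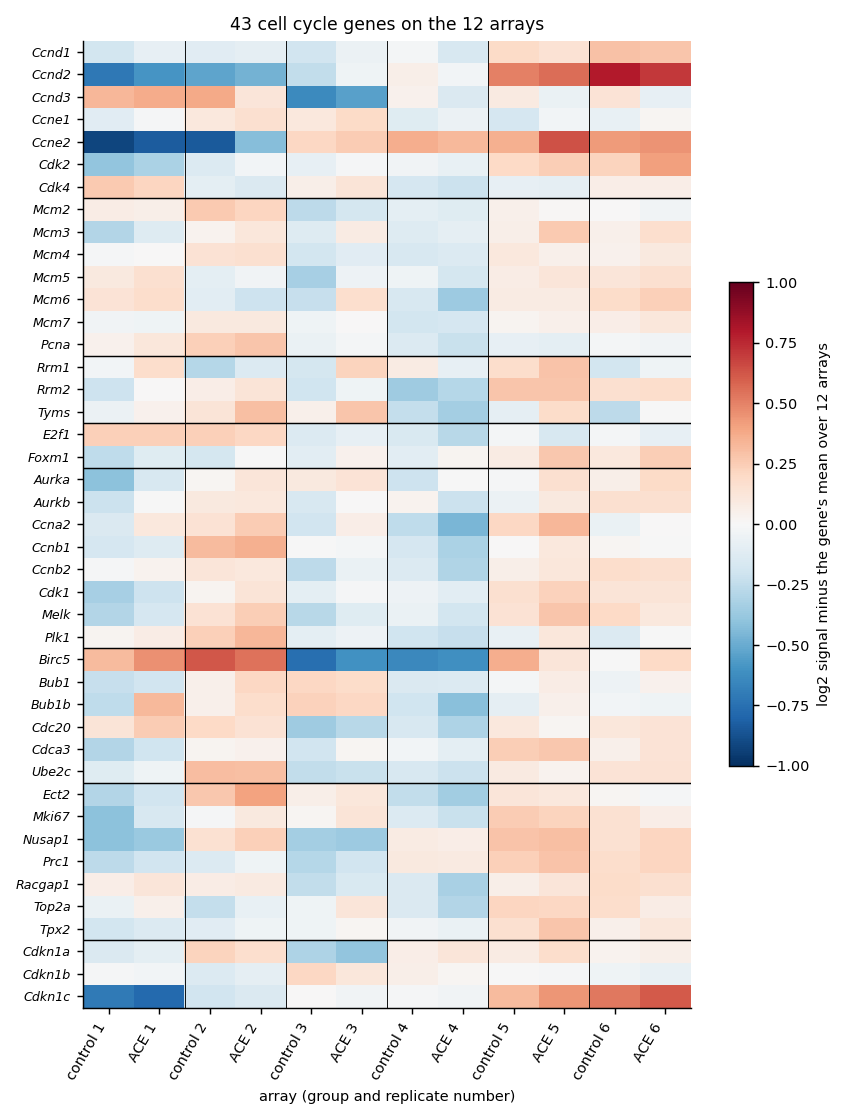
Log2 signal of the 43 genes (rows, brightest probe, black lines between roles from G1 genes at the top to CDK inhibitors at the bottom) on the 12 arrays (columns, control and ACE of each replicate side by side), as the difference from the gene's mean over the arrays. Colours change between replicates rather than between the paired control and ACE columns, most in Ccnd2, Ccne2, Birc5 and Cdkn1c.

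By brightest probe, the widest spread was in 5 genes. Ccne2 had the largest of these SD between experiments, 0.60, with experiment means of 5.72 and 5.96 in experiments 1 and 2 and of 6.82 to 7.09 in the other 4, a 2.59-fold range. Ccnd2 followed with 0.56, its means being 9.09, 9.24, 9.60, 9.76, 10.27 and 10.49 in experiments 1 to 6. Birc5 (0.53) was lowest in experiments 3 and 4, at 8.76 and 8.82, and between 9.54 and 10.03 in the others. Cdkn1c (0.46) ran from 11.75 in experiment 1 to 13.06 in experiment 6, and its dimmer probe spread likewise (0.60). Of all 57 probes the dimmer Bub1 probe had the largest SD, 0.83, with a mean of 3.08 in experiment 1 and of 4.80 to 5.29 in the others, against an SD of 0.15 in the brighter Bub1 probe. The dimmer probe was not well above background on 1 of the ACE arrays, and its ACE signal in experiment 1 was 2.98. Ccnd3 (0.33) was lowest in experiment 3, at 10.47, and between 11.01 and 11.41 elsewhere. For these 5 genes the SD within an experiment was 0.053 to 0.12, and the adjusted p of the F test was at most 0.0013. At the other end, Cdkn1b, Mcm7 and Ccne1 had an SD between experiments of 0.094, 0.10 and 0.11, with at most a 1.21-fold range. Ccnd1, of the same family as Ccnd2, had an SD of 0.18 and was highest in the same experiments 5 and 6 (12.54 and 12.65).

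**Figure D5:**
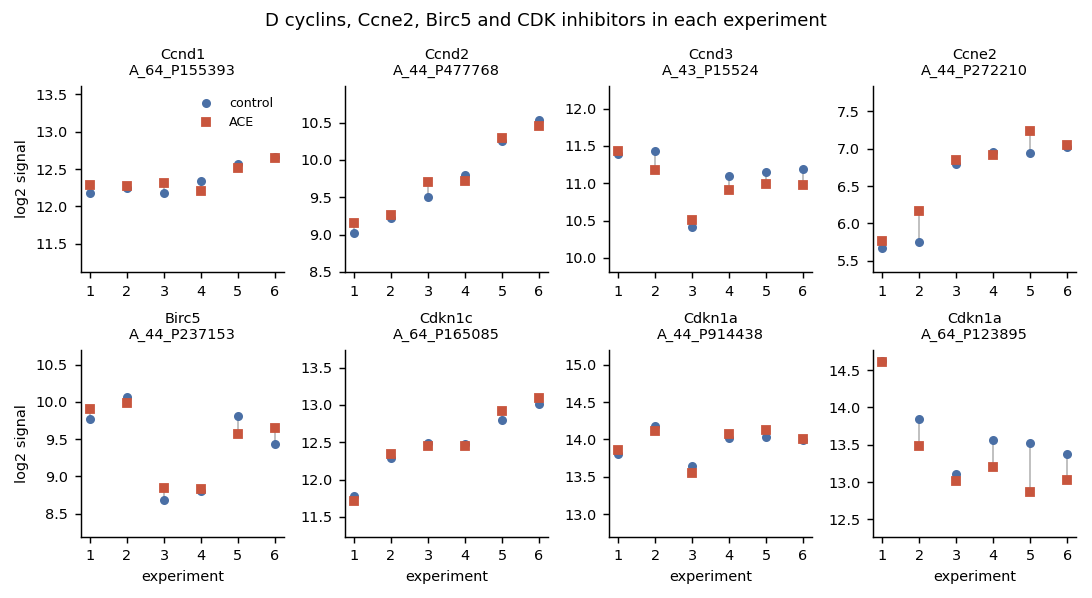
Log2 signal (y axis, own range of equal height in each panel) in the 6 experiments (x axis) for the D cyclins, Ccne2, Birc5, Cdkn1c and both Cdkn1a probes, with circles for control and squares for ACE. Circle and square lie close together in most experiments, except for Cdkn1a A_64_P123895, where the square is lower by up to 0.66, and for Ccne2 in experiments 2 and 5.

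Markers of cell types that divide in such cultures varied between the experiments as well. The summed signal of 6 oligodendrocyte precursor genes (all of them well above background on 12 arrays) was 15.30 to 16.36 in control and 15.23 to 16.47 in ACE, lowest in experiment 1 and highest in experiment 6 in both groups, as were Ccnd2 and Cdkn1c. The sum of 9 astrocyte genes ran from 18.97 to 19.50 in control and from 18.92 to 19.47 in ACE, highest in experiment 1 and lowest in experiment 6. The 6 neural stem cell or radial glia genes, at 17.94 to 18.37 in control and 17.93 to 18.37 in ACE, had the same order at both ends. For the 5 granule precursor genes the sum was 7.94 to 9.21 in control and 7.89 to 9.16 in ACE, lowest in experiment 3. The part of these cells in the spread of the cell cycle genes was not tested.

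Between the groups, the marker lists with the largest median difference were those of skeletal muscle (-1.10 over 10 genes) and endothelium (-0.099 over 6, of which 3 were well above background on 12 arrays and 1 on none). For muscle, 6 genes were well above background on 12 arrays, the summed signal was 14.59 to 16.80 in control and 14.83 to 15.95 in ACE, and among the controls the mean signal of the list was highest in pairs 2, 1 and 6 (10.50, 9.96 and 8.26). The number past the adjusted limma threshold was 0 in all 12 marker lists. The medians of the pan-neuronal, microglia, oligodendrocyte precursor, fibroblast and granule precursor lists were 0.080, 0.070, 0.025, 0.018 and 0.017. Those of the Purkinje cell, astrocyte, granule neuron, neural stem cell and oligodendrocyte lists were -0.076, -0.055, -0.021, -0.016 and -0.0061. The summed microglia signal was 16.52 to 16.82 in control and 16.67 to 17.01 in ACE. The part of muscle, microglia or the other cells in the differences of the cell cycle genes was not tested.

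The wider pathway was described by 107 further genes in 3 lists, of which 103 were on the array with 126 probes, 123 of them tested. The number past the adjusted threshold was 0 in each list, and at an unadjusted p under 0.05 stood 9 probes higher in ACE (7.32%) and 6 lower (4.88%), against 6.9% and 9.73% of all probes. The mitosis and chromosome segregation list had a median difference of 0.047 with 34 of 45 genes above 0, and 7 probes higher and 3 lower at that p. The list of origin licensing, replication and S-phase checkpoint had a median of 0.039 with 27 of 34 above 0, and 1 probe in each direction. The list of RB, E2F, MYC and growth arrest genes had a median of -0.012 with 10 of 24 above 0, 1 probe higher and 2 lower. E2f3, an activator E2F, had the lowest p of these lists, with 8.67, 9.10 and 9.35 in control and 8.85, 9.30 and 9.66 in ACE, higher in all 6 pairs by 0.24 ± 0.031 (adjusted p = 0.141). Cdc25c, the phosphatase that activates Cdk1, had 4.99, 5.06 and 5.47 in control against 5.09, 5.30 and 5.66 in ACE, also higher in all 6 pairs (0.19 ± 0.036). The mitotic kinesin Kif2c, with 6.37, 6.88 and 7.29 in control and 6.69, 7.06 and 7.41 in ACE, was higher in all 6 pairs by 0.18 ± 0.051. The groups overlapped for each of these 3 genes. Lmnb1, lamin B1 of the nuclear envelope, was lower in all 6 pairs, by -0.44 ± 0.14, with 8.61, 9.67 and 10.82 in control and 8.44, 9.38 and 9.64 in ACE. Gadd45g, a stress-induced growth arrest gene, had 12.03, 12.17 and 12.31 in control and 11.74, 12.03 and 12.11 in ACE, a difference of -0.19 ± 0.051, lower in 5 of 6 pairs. Between experiments, the mitotic genes Spag5, Gtse1 and Ckap2l and the replication gene Dtl had SD of 0.80, 0.77, 0.59 and 0.57 (the ACE value of Dtl in experiment 5 was missing and that pair was left out of its SD).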

How the data were processed

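Cultures, groups and pairs are as described above. Per the file headers, the authors scanned 1-colour (Cy3) Agilent arrays and extracted spot intensities with Feature Extraction, which was at version 11.5.1.1 except in replicate 1, whose 2 arrays had 11.0.1.1. Their processed intensity has the background subtracted and no scaling between arrays. A deposited series-wide set of log2 values had been quantile normalised and centred on each probe's median by the authors. It correlated at 0.997 to 0.999 per array with the centred values computed here and was used as an alternative.

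Here control spots were left out and spots marked as outliers set to missing (447 probe values). The log2 processed intensity was quantile normalised over 12 arrays and spots of a probe were averaged. Probes above the 20th percentile of their array on at least 7 arrays, with at least 4 complete pairs, were kept (23796 of 30367, all 57 member probes among them). Saturated probe values numbered 0 and no column was left out (0).

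The test was the two-sided moderated statistic of limma 3.58.1, run per probe under R 4.3.3 with replicate as block, Benjamini-Hochberg adjustment over all probes kept and a threshold of 0.05. The spread between experiments was tested by the moderated F test of the replicate terms. The script was tested on simulated data. The methods' paired rank test, here in its exact form, was an alternative, as were the 75th percentile shift and normexp with an offset of 50. Other filters, other forms of the block and leaving out replicates were further ones. With 6 pairs the second lowest exact p is 0.0625, so fewer probes fall under 0.05 than by the p-values that the study printed. The pairing comes from the study's methods, 1 lot of cells per experiment, and was checked: deviations from group means correlated at 0.449 to 0.912 between arrays of the same number and at -0.439 to 0.390 otherwise. Slides (6), scan batches (4) and replicates were nested.

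The members and all gene lists were chosen with earlier results of these data known. Any member could be named. Values by group were given for 11 set genes, member probes with an unadjusted p under 0.05, the 5 members with the largest and 3 with the smallest SD between experiments, and up to 5 genes each by p and by SD from the related lists, of which 1 is not reported here. Muscle, endothelial, fibroblast and other marker lists (12 in all) were used as descriptions. Probe positions and build (rn4) are those of the files, of which 55 member probes had one. Files were read by R's data.table package (1.17.8) and figures drawn with matplotlib 3.10.9 in Python 3.11.15.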

Additional observations from a re-analysis of the deposited data

Results flagged for a closer look

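Within the groups of 6 arrays, single arrays far from the rest were sought in 94 groups by Dixon's ratio of the gap to the range, for which chance sets apart about 1 in 20 groups. There were 2 such arrays. The Ccnd3 signal of control replicate 3 was 10.42, with the other controls between 11.10 and 11.44. The signal of the second Cdkn1a probe in ACE replicate 1 was 14.61, with the other ACE arrays between 12.86 and 13.48. In both cases the paired array of the other group lay on the same side (10.51 and 14.62).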

How the results depend on the processing

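All settings named in this section left 0 member probes past the adjusted threshold (lowest adjusted p 0.088 to 0.9998). Where that was tested, 48 to 54 of the 57 probes (of 56 with bright probes alone) differed between experiments. The member median stayed above 0, from 0.023 (75th percentile shift) to 0.070 (without replicate 4). Under that shift the median of all probes was -0.033, 33 of 43 genes were above 0, and of all probes with an unadjusted p under 0.05 the higher ones made up 19.7%, against 41.5% in the main setting, 51.5% with the deposited values and 54.3% without the block. Member probes at that p, 9 in the main setting, numbered 14 with normexp (24.6%, against 18.1% of all probes) and 14 with the deposited values (24.6% against 16.8%). They numbered 6 by the exact paired rank test (10.5% against 11.6%) and 8 under the shift (14.0% against 17.7%). Among other filters, there were 11 with bright probes alone (19.6% against 18.6%) and 8 with no filter on dim probes (14.0% against 12.5%). Leaving out a replicate gave 6 to 14 (14 without replicate 4, 24.6% against 14.0%, and 6 without replicates 2 and 6, 10.5% against 11.8% and 12.7%). In pairs 3, 4 and 5, a setting that keeps pair 4 and was chosen after seeing the data, the number was 2 (3.51% against 6.72%). Without the replicate block, which ignores the pairing, it was 0 (against 0.340%). The member median was 0.028 without replicate 1 and 0.029 without replicate 3. With the block as a random effect 5 of all probes passed the adjusted threshold and 10 member probes the unadjusted one (17.5% against 16.8%), the dimmer Top2a probe no longer among them. The median SD between experiments was 0.192 under the shift and 0.143 within the largest scan batch. Signs turned where the difference was near 0: Cdkn1a (brighter probe) to -0.013 with normexp and -0.0034 without replicate 5 (-0.0034 to 0.033 when leaving out a replicate), Ccnd1 without replicates 1 and 3 (-0.016 to 0.038), Pcna likewise (-0.0040 to 0.027), and Birc5 without replicate 6 (-0.00062 to 0.088). In pairs 3, 4 and 5 they turned for Ccnd1 (-0.018), Pcna (-0.018), Mki67 (-0.0017), Birc5 (-0.021), Cdk4 (0.0016) and Mcm2 (0.0064). The cause was not tested.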
